A study of Rattus norvegicus with 7 samples.

Results

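The genes described here carry a long-chain fatty acid such as DHA (docosahexaenoic acid, the omega-3 chain enriched in brain membranes) from the blood to the inside of a brain cell and prepare it for use. The list named 10 genes by symbol: the fatty acid binding proteins Fabp3, Fabp5 and Fabp7, the transporter Mfsd2a, the fatty acid transport proteins Slc27a1 and Slc27a4, the scavenger receptor Cd36, and the acyl-CoA synthetases Acsl3, Acsl4 and Acsl6. Of these, 9 were found in both tables, among 15805 symbols that the tables share, and Cd36 was not analysed here. RNA came from hippocampus (4 libraries) and hypothalamus (3 libraries) of male Sprague Dawley rats, 2 months old at the start, that ate a diet with DHA for 6 weeks. The study asked how such a diet acts on these brain regions. Animals fed chow were not analysed here, so every value is from a DHA-fed rat and no effect of the diet was estimated. The labels do not say whether hippocampus and hypothalamus came from the same animals.

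Fatty acids enter the brain mostly across the capillary endothelium, where Mfsd2a moves lysophosphatidylcholine that carries DHA and where transport proteins and Cd36 take up unesterified fatty acids. Inside the cell, fatty acid binding proteins (small cytosolic carriers) shuttle the insoluble chain, and acyl-CoA synthetases attach coenzyme A to it. This activation traps the fatty acid in the cell and opens the way to phospholipids, storage or oxidation. Fabp7 is the carrier of astrocytes and radial glia and binds DHA tightly, Acsl6 is the synthetase best known for keeping DHA in neurons, and Acsl4 prefers arachidonic acid.

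Levels are FPKM (fragment counts corrected for transcript length and library size), which the authors deposited in a separate table for each tissue. The sum of FPKM over a library was 370020 to 391349 in hippocampus and 443335 to 471484 in hypothalamus, and sequencing depth is unknown because FPKM holds no counts. The tables were normalized separately, so tissue and table cannot be told apart and no test was run between them. With 4 libraries against 3, an exact two-sided permutation test could not go below p = 0.0571 in any case. The tissue labels were checked against markers. The 4 hippocampal neuron markers together read 790 to 1093 FPKM in hippocampus and 20.9 to 26.4 FPKM in hypothalamus, and the 7 hypothalamic neuron markers read 5704 to 8159 FPKM in hypothalamus and 4.86 to 11.7 FPKM in hippocampus. Choroid plexus markers (8 of 9 found, Otx2 at 0 in all libraries) summed to 128 FPKM in hippocampus replicate 2 and to as much as 6690 FPKM in the other hippocampus libraries, against 102 to 165 FPKM in hypothalamus.

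All 9 genes were expressed in every library of both tissues. In hippocampus they spanned from Acsl3, at 118 ± 15.7 FPKM (SD, n = 4), down to Slc27a4, at 20.003 ± 4.75 FPKM (SD, n = 4). The order there was Acsl3, Fabp5, Fabp7, Acsl6, Slc27a1, Acsl4, Fabp3, Mfsd2a and Slc27a4. Only Fabp7 with Acsl6 and Acsl6 with Slc27a1 were neighbours in that order whose library values did not overlap. In hypothalamus the order was led by Fabp7, at 155 ± 49.8 FPKM (SD, n = 3), and ended with Mfsd2a, at 15.4 ± 1.69 FPKM (SD, n = 3) at the higher of its 2 loci. With both loci summed Mfsd2a averaged 30.2 FPKM there and was not last, since Acsl4 averaged 21.4 FPKM. The steps from Fabp7 to Fabp5 and from Slc27a1 to Slc27a4 were the ones without overlap there, and the library ranges of the other neighbours overlapped. Within each of the 3 hypothalamus libraries, Acsl3 still read above Acsl6 and Slc27a4 above Fabp3. Among symbols that averaged 1 FPKM or more, Acsl3 and Fabp5 lay at percentiles 95.0 and 94.5 of hippocampus, and Fabp7 lay at percentile 95.6 of hypothalamus. Mfsd2a lay at percentile 67.8 of hippocampus and 55.8 of hypothalamus.

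**Figure D1:**
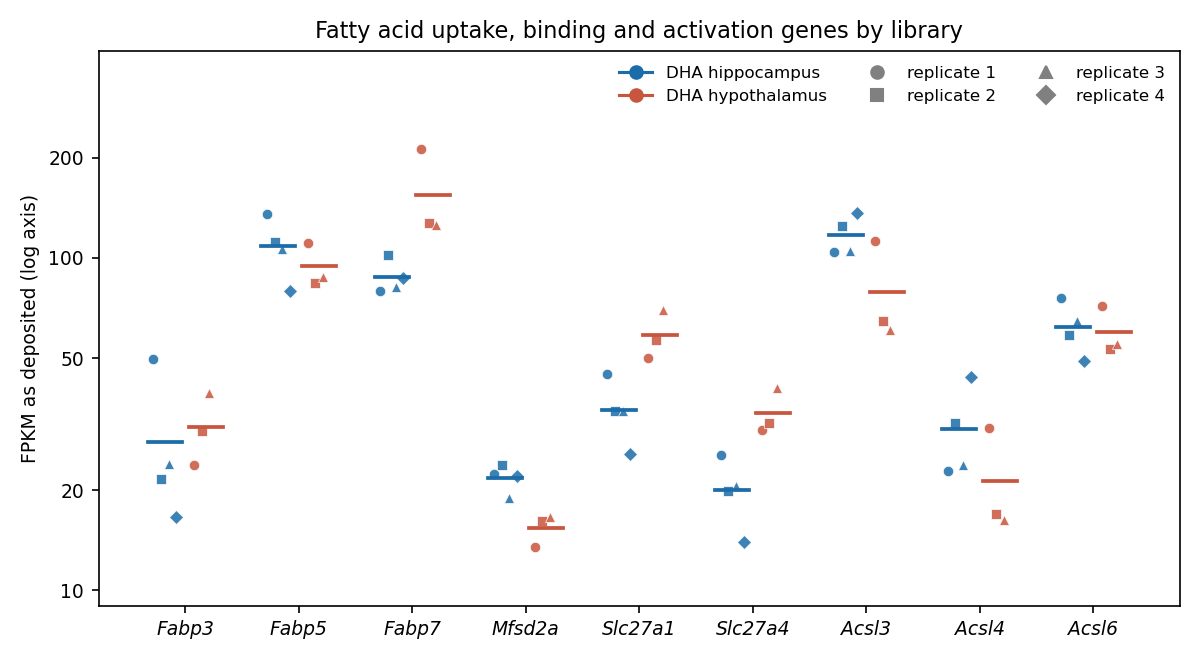
FPKM as deposited (log axis) of the 9 genes in each library, with hippocampus in blue, hypothalamus in red, a symbol for each replicate and a bar at the mean. Fabp7 in hypothalamus is the highest group mean at 155 FPKM, and Mfsd2a in hypothalamus, drawn at 1 of its 2 loci, the lowest at 15.4 FPKM, against 30.2 FPKM with both loci summed.

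Transport into the brain cell is described before binding and activation. Mfsd2a, the transporter of DHA-carrying lysophospholipid, read 22.3, 23.9, 18.9 and 22.1 FPKM in hippocampus replicates 1 to 4 and 13.5, 16.2 and 16.6 FPKM in hypothalamus replicates 1 to 3. These values are from the locus with the highest mean in each table, which by row order is not the same locus, and every hippocampus library was above every hypothalamus library. To compare tissues, the FPKM of every library were multiplied so that the shared symbols add up to 1000000, and differences are given on the log2(rescaled FPKM + 1) scale, which understates the change of low genes. On that scale Mfsd2a was higher in hippocampus by 0.78, a 1.72-fold difference, and the libraries did not overlap under any of the 5 scalings tried. Of the 10736 symbols compared, those that averaged 1 FPKM or more in a tissue, 28.2% were likewise higher in every hippocampus library after rescaling. The direction depended on which locus was read, because Mfsd2a has 2 loci in each table.

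In hippocampus, the other Mfsd2a locus read 0.798, 0.148, 1.10 and 0 FPKM, so nearly all signal sat at a single locus. In hypothalamus, both loci were expressed alike, the other one at 15.7, 13.1 and 15.6 FPKM. By row order alone, the locus listed before Fabp3 is the low one in hippocampus and the higher one in hypothalamus, and the locus listed after Fabp3 averaged 21.8 ± 2.07 FPKM (SD, n = 4) in hippocampus against 14.8 ± 1.42 FPKM (SD, n = 3) in hypothalamus. With both loci summed, Mfsd2a averaged 22.3 ± 1.72 FPKM (SD, n = 4) in hippocampus against 30.2 ± 1.66 FPKM (SD, n = 3) in hypothalamus, and the rescaled difference changed sign to −0.17, with every hypothalamus library above every hippocampus library. The tables do not say what separates the loci, and how fragments were shared between them is not given in the sources used here. So the data give no single direction for Mfsd2a.

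**Figure D2:**
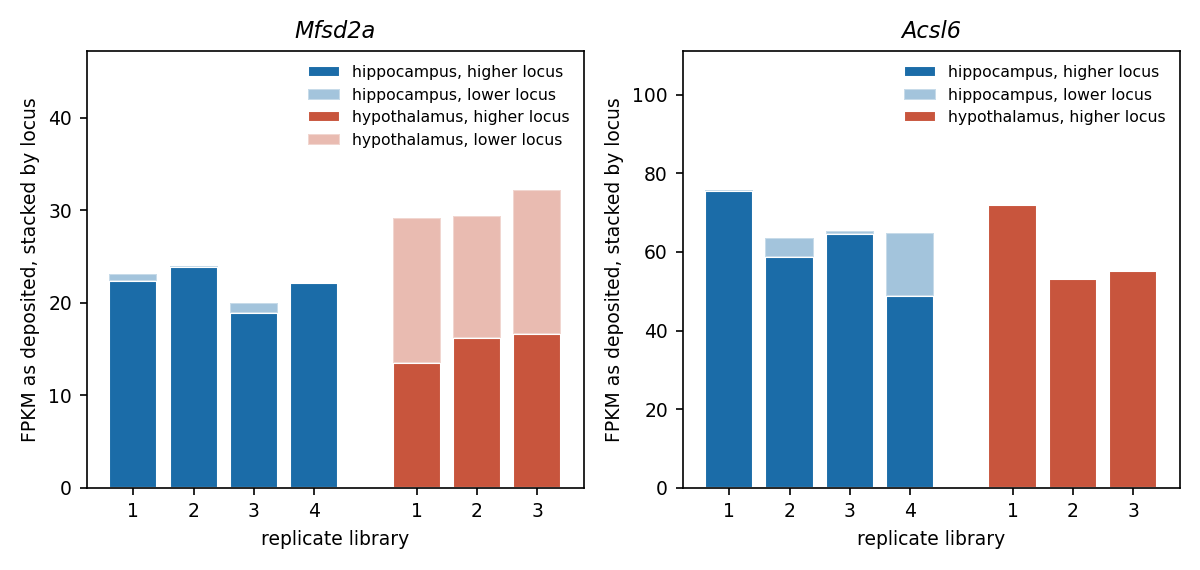
FPKM as deposited of Mfsd2a (left) and Acsl6 (right) in each library, stacked by locus, with the locus of higher mean in full colour and the other in pale colour. The pale part adds at most 1.10 FPKM to Mfsd2a in hippocampus but 13.1 to 15.7 FPKM in hypothalamus, and for Acsl6 it is largest in hippocampus replicate 4, at 16.0 FPKM.

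Of the 5 markers found for endothelial cells, the main site of Mfsd2a in brain, 2 were higher in every hippocampus library after rescaling, beside 28.2% of all symbols, and 3 overlapped. The 5 endothelial markers found, of 7 listed, summed to 93.5 to 134 FPKM in hippocampus and to 55.3 to 82.7 FPKM in hypothalamus. Among them, Cldn5 read 73.2 FPKM on average in hippocampus and 37.4 FPKM in hypothalamus, and Flt1 read 15.95 and 6.96 FPKM. These were the markers that separated, Flt1 under each of the 5 scalings and Cldn5 under 4, since it overlapped as deposited. Cldn5 made up most of the sum. Pecam1 leaned the other way, at 8.07 and 11.3 FPKM with a rescaled difference of −0.16, and Ocln and Tek overlapped, with differences of 0.77 and 0.40. Their part in the Mfsd2a values was not tested. In bulk tissue, fewer cells of a type and less RNA per cell cannot be told apart.

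Slc27a1 and Slc27a4 encode the transport proteins FATP1 and FATP4, which combine uptake of long-chain fatty acids with acyl-CoA synthetase activity. Slc27a1 read 44.9, 34.7, 34.6 and 25.7 FPKM in hippocampus and 49.9, 56.7 and 69.9 FPKM in hypothalamus. Slc27a4 read 25.6, 19.9, 20.6 and 14.0 FPKM in hippocampus and 30.3, 31.9 and 40.5 FPKM in hypothalamus. As deposited, every hypothalamus library was above every hippocampus library for both genes, as for 35.2% of all symbols compared. After rescaling, hippocampus replicate 1 reached into the hypothalamus range and both genes overlapped, with differences of −0.46 for Slc27a1 and −0.49 for Slc27a4. Without replicate 1 of each tissue the rescaled libraries no longer overlapped and both differences were −0.69. In that setting 33.2% of all symbols were higher in every hypothalamus library.

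The ratio of the 2 genes hardly moved while their levels did. Slc27a1 over Slc27a4 was 1.75, 1.75, 1.68 and 1.84 in hippocampus replicates 1 to 4 and 1.65, 1.78 and 1.73 in hypothalamus replicates 1 to 3. Such a ratio within a library is free of any library-wide scaling. As a measure of likeness, the SD over the 7 libraries of the log2 ratio between 2 genes was computed, chosen after the values were seen. It was 0.050 for this pair, and among 6936 other symbols that averaged 5 FPKM or more in both tissues, each of the 2 genes was the closest to the other. The median SD to Slc27a1 over those symbols was 0.58. The next closest were Oxa1l, at 0.057, to Slc27a1 and Clip2, at 0.058, to Slc27a4. When single libraries were left out, the rank of each in the other's list was between 1 and 3. Both genes followed replicate orders that were common over all symbols, as described below. The part of these orders, or of gene span, in the closeness of the pair was not tested. The genes are paralogs, and whether the authors' counting could move reads from one to the other is not given in the sources used here.

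The sequences upstream of the genes that followed each other most closely are shown, here for Slc27a1 and Slc27a4. They are the 250 bases before the gene start in the RefSeq promoter table (build GRCr8, whereas the expression files were made on rn5), at chr16:18312717-18312966 on the plus strand for Slc27a1 and chr3:33472653-33472902 on the plus strand for Slc27a4. The table held 8 of the 10 listed genes and not Fabp5 or Mfsd2a. Capitals mark matches on either strand to the GC box letters GGGCGG and to the CCAAT box letters CCAAT.
Slc27a1: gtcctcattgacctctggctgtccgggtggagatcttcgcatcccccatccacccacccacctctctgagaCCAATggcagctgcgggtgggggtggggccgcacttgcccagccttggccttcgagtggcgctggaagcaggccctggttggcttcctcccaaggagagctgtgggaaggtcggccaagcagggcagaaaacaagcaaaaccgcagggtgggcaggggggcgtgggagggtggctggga
Slc27a4: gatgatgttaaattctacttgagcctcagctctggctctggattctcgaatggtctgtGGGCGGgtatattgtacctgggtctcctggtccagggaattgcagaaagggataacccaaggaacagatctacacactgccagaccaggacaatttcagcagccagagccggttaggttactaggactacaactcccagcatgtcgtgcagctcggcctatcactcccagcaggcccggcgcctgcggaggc
Slc27a1 held 1 CCAAT box and no GC box, and Slc27a4 held 1 GC box and no CCAAT box. Of 33469 promoters of this length in the table, 30.5% held a GC box match and 34% held a CCAAT match. The nuclear receptor core motif AGGTCA, searched on both strands, matched in Slc27a1 and Fabp7, 2 of the 8, and in 14.1% of all promoters. A match is a description of letters only.

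Among the binding proteins, the carrier with the highest mean was Fabp5 in hippocampus and Fabp7 in hypothalamus. Fabp7, the glial carrier, read 79.6, 102, 81.8 and 87.0 FPKM in hippocampus and 213, 127 and 125 FPKM in hypothalamus. Fabp5, a carrier of neurons, glia and endothelium, read 135, 112, 107 and 79.6 FPKM in hippocampus and 111, 84.3 and 87.8 FPKM in hypothalamus. As deposited, Fabp7 was higher in every hypothalamus library, whereas Fabp5 overlapped. Fabp7 made up 39.9% ± 7.49 (SD, n = 4) of the summed FPKM of the 3 carriers in hippocampus and 54.5% ± 5.99 (SD, n = 3) in hypothalamus, and Fabp5 made up 48.1% ± 3.46 (SD, n = 4) and 33.9% ± 1.68 (SD, n = 3).

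Fabp7 over Fabp5 was 0.588, 0.917, 0.767 and 1.09 in hippocampus and 1.92, 1.51 and 1.43 in hypothalamus. The ratio was higher in every hypothalamus library, by 0.96 on the log2 scale or 1.95-fold. Among the 7 planned ratios it alone did not overlap with all libraries in. How often ratios of other gene pairs separate the tissues was not computed. Leaving out any single library kept the libraries apart, with differences from −1.10 to −0.80 (hippocampus minus hypothalamus), and without replicate 1 of each tissue the difference was −0.67. The level of Fabp7 alone was less firm. Fabp7 was higher in every hypothalamus library under 3 of the 5 scalings, and also with loci summed. Its rescaled difference was −0.48 with overlapping libraries, since hippocampus replicate 2 at 287 rescaled FPKM exceeded hypothalamus replicate 3 at 282, and the difference was −0.22 without hypothalamus replicate 1.

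Markers of cell types known to carry Fabp7 gave a mixed picture. The 4 neural progenitor markers summed to 78.7 to 183 FPKM in hippocampus and 255 to 494 FPKM in hypothalamus. Of these, Vim, at 55.6 and 306 FPKM on average, and Nes, at 0.328 and 2.07 FPKM, were higher in every hypothalamus library, and Sox2 and Dcx overlapped, with rescaled differences of 0.12 and 0.04. With loci summed the difference of Sox2, which has 2 loci in hypothalamus, turned to −0.51. The 4 tanycyte markers, of the glia lining the hypothalamic ventricle, summed to 0.654 to 2.35 FPKM in hippocampus and 8.72 to 14.3 FPKM in hypothalamus, and Rax was listed at 0 in all hippocampus libraries. The 6 astrocyte markers found, of 7, summed to 1251 to 1466 FPKM in hippocampus and 1131 to 1536 FPKM in hypothalamus, which overlap. Within that sum Aqp4, at 87.6 and 247 FPKM, and Aldh1l1, at 15.1 and 47.1 FPKM, were higher in every hypothalamus library. Slc1a2, at 672 and 221 FPKM, was higher in every hippocampus library, and Gfap, Slc1a3 and Gja1 overlapped after rescaling. The difference of Slc1a3 went from −0.40 to 0.03 with loci summed. Their part in the Fabp7 values was not tested.

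Fabp3, the heart-type carrier that neurons also use, was the most variable of the 9 genes in hippocampus. It read 49.5, 21.6, 24.0 and 16.6 FPKM there and 23.9, 30.1 and 39.3 FPKM in hypothalamus. Its SD among hippocampus replicates was 0.65 on the log2(FPKM + 1) scale, above that of 95.6% of symbols. Without hippocampus replicate 1 it was 0.26. The rescaled difference between tissues was 0.05 with overlapping libraries, but −0.43 without overlap when replicate 1 of each tissue was left out. With those libraries out, 33.2% of all symbols were higher in every hypothalamus library.

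Of the 3 synthetases, Acsl3 was higher in every hippocampus library after rescaling, as were 28.2% of all symbols, and Acsl4 and Acsl6 overlapped. Acsl3, a synthetase of the endoplasmic reticulum and lipid droplets, read 104, 124, 105 and 136 FPKM in hippocampus and 112, 64.5 and 60.7 FPKM in hypothalamus. As deposited, hypothalamus replicate 1 fell among the hippocampus libraries. After rescaling, Acsl3 was higher in hippocampus by 0.91 or 1.88-fold without overlap, and this held under 4 of the 5 scalings. Acsl4, the arachidonate-preferring synthetase on the X chromosome, read 22.9, 32.0, 23.9 and 43.8 FPKM in hippocampus and 30.9, 16.98 and 16.3 FPKM in hypothalamus. Its rescaled difference was 0.82 and its libraries overlapped, again through hypothalamus replicate 1. Without replicate 1 of each tissue the differences were 1.25 for Acsl3 and 1.24 for Acsl4, both without overlap. In that setting 40.9% of all symbols were higher in every hippocampus library.

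Acsl6, the synthetase of neurons, read 75.6, 58.8, 64.6 and 48.9 FPKM in hippocampus and 71.8, 53.1 and 55.1 FPKM in hypothalamus. The tissues overlapped, with a rescaled difference of 0.34 and 0.04 as deposited. A second hippocampal locus of Acsl6 read 0.0473, 4.79, 0.813 and 16.0 FPKM, and was highest in replicate 4, where the main locus was lowest. With loci summed, hippocampus read 75.6, 63.5, 65.4 and 64.8 FPKM, so the SD over replicates went from 11.2 to 5.56 FPKM. The summed and rescaled values of Acsl6 were higher in every hippocampus library, by 0.44.

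Acsl3 over Acsl4 was 4.55, 3.89, 4.39 and 3.12 in hippocampus and 3.63, 3.798 and 3.72 in hypothalamus. The SD of this log2 ratio over the 7 libraries was 0.18, and 2.41% of symbols were closer to Acsl3 than Acsl4 was, a rank of 168. That rank was 411 without hypothalamus replicate 1 and 101 without hippocampus replicate 4. A closer pair was Fabp5 and Acsl6, at an SD of 0.107. The rank of Acsl6 among symbols nearest Fabp5 was 8, but it ran from 1 to 82 over the alternatives, with 82 when loci were summed. In the other direction, Fabp5 ranked 7 among symbols nearest Acsl6 and ran from 1 to 209, with 209 when loci were summed. The upstream sequences of Acsl3 and Acsl4 are shown beside those of Slc27a1 and Slc27a4 because the levels of the 2 pairs moved in opposite directions over the libraries. They lie at chr9:87563351-87563600 on the plus strand and chrX:110803262-110803511 on the minus strand (GRCr8, RefSeq), with capitals for the same GC box and CCAAT letters.
Acsl3: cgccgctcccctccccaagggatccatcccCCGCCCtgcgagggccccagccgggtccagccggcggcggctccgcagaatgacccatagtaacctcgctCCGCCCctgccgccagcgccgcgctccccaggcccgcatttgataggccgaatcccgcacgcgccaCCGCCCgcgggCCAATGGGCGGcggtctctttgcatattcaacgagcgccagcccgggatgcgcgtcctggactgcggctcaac
Acsl4: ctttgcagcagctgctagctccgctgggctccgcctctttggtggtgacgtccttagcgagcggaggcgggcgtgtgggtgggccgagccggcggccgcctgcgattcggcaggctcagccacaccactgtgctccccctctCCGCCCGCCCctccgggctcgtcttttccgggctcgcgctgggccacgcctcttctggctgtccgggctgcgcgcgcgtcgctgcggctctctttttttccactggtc
Acsl3 held 4 GC box matches, 1 of them directly after its CCAAT box, and Acsl4 held 2 that overlap each other. G and C made up 72.4% and 70.4% of these windows, 65.6% and 54.8% of those of Slc27a1 and Slc27a4, and 51.2% of the median promoter.

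**Figure D3:**
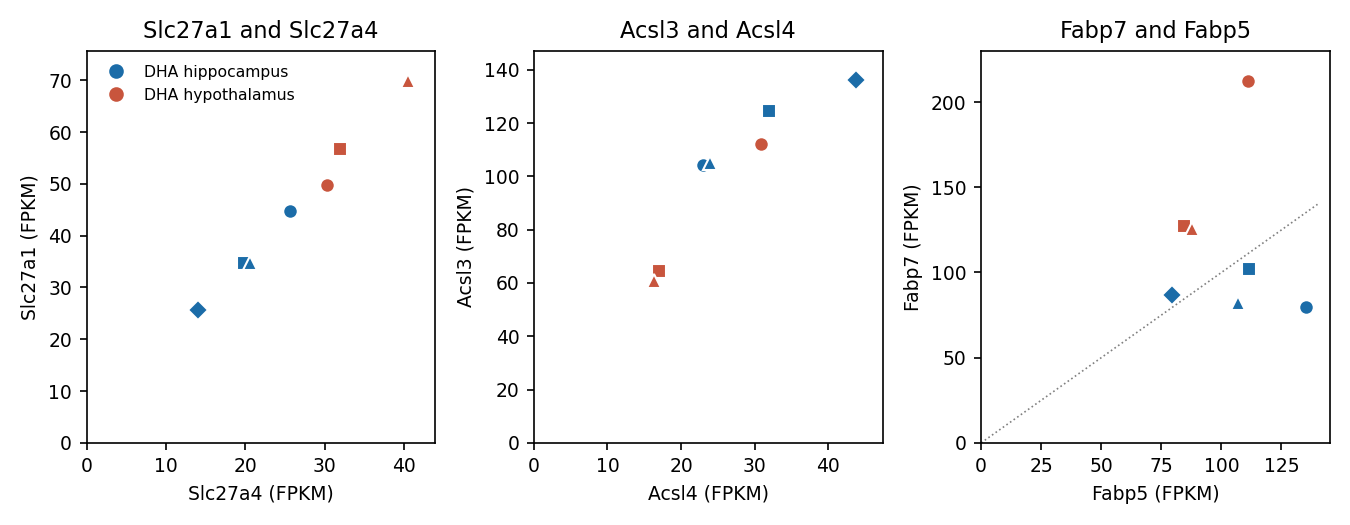
FPKM as deposited of Slc27a1 against Slc27a4, Acsl3 against Acsl4 and Fabp7 against Fabp5, 1 point for each library, hippocampus in blue and hypothalamus in red, with symbols for replicates 1 (circle), 2 (square), 3 (triangle) and 4 (diamond). The Slc27a1 points lie near a line through 0, with ratios from 1.65 to 1.84, and the Fabp7 panel has a dotted line of equal FPKM, which all hypothalamus libraries and 1 hippocampus library lie above.

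Replicate libraries of the same tissue differed in orders that several of the genes shared. In hippocampus, Fabp3, Fabp5, Slc27a1, Slc27a4 and Acsl6 were each highest in replicate 1 and lowest in replicate 4, and Acsl3 and Acsl4 were highest in replicate 4 and lowest in replicate 1. With loci summed, Acsl6 was lowest in replicate 2 instead. In hypothalamus, Fabp7, Acsl3 and Acsl4 were highest in replicate 1 and lowest in replicate 3, and Fabp3, Mfsd2a, Slc27a1 and Slc27a4 were the reverse. These orders, noticed after the values were seen, were common in the tables as a whole. Of all hippocampal symbols that averaged 1 FPKM or more, 21.8% were highest in replicate 1 and lowest in replicate 4 and 22.2% the reverse. In hypothalamus, 22.7% were highest in replicate 1 and lowest in replicate 3 and 24.6% the reverse. The members' orders are those of a large part of the transcriptome. Gene spans in the build rn5 were not at hand, and the part of gene span in these orders was not tested.

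**Figure D4:**
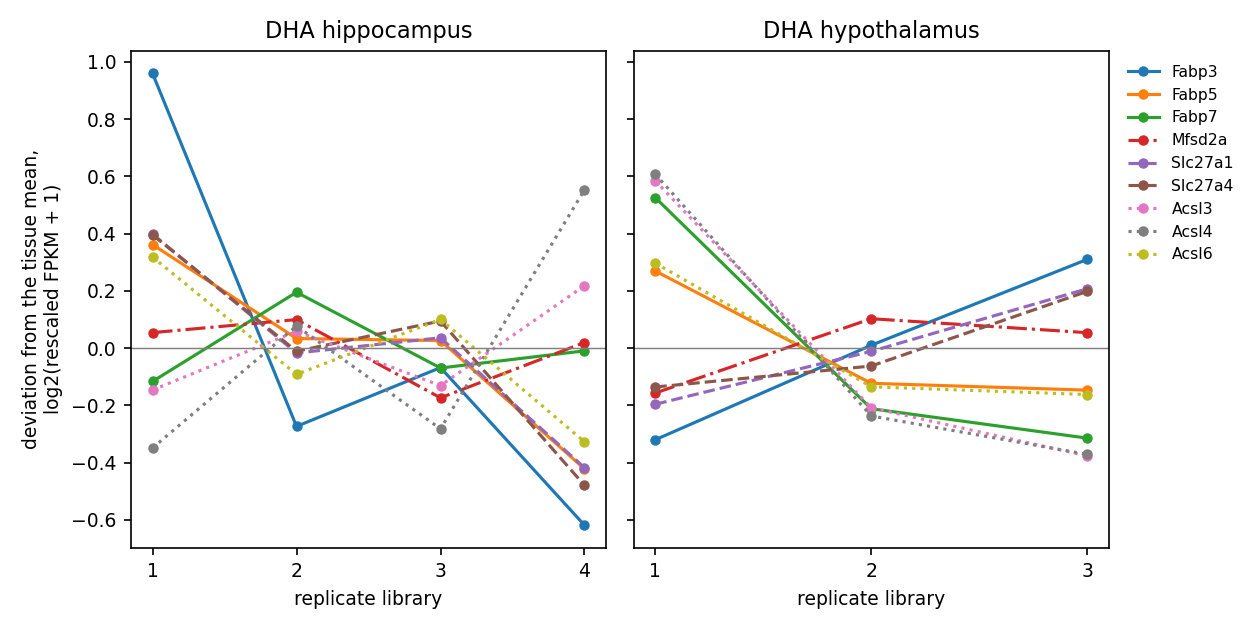
Deviation of each gene from its tissue mean, in log2(rescaled FPKM + 1), for each replicate library of hippocampus (left) and hypothalamus (right). Lines only join the points of a gene, since replicates have no order. Slc27a1 and Slc27a4 lie together in all 7 libraries, and Acsl3 and Acsl4 lie opposite to them in replicates 1 and 4 of hippocampus and replicates 1 and 3 of hypothalamus.

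A ratio across the pairs, chosen because these genes had been seen to move oppositely, is given as a description, and the part of gene span in it was not tested. Acsl3 over Slc27a1 was 2.33, 3.59, 3.03 and 5.31 in hippocampus and 2.25, 1.14 and 0.869 in hypothalamus. It was higher in every hippocampus library, by 1.36 on the log2 scale or 2.56-fold, and the lowest hippocampus library lay just above hypothalamus replicate 1. The other ratios between synthetases and between carriers overlapped. Acsl3 over Acsl6 ran from 1.38 to 2.79 in hippocampus and from 1.10 to 1.56 in hypothalamus, Acsl4 over Acsl6 from 0.303 to 0.895 and from 0.296 to 0.430, Fabp7 over Fabp3 from 1.61 to 5.24 and from 3.19 to 8.90, and Fabp3 over Fabp5 from 0.194 to 0.366 and from 0.215 to 0.448. Without replicate 1 of each tissue, 3 of these separated, with differences of 0.87 for Acsl3 over Acsl6, 0.84 for Acsl4 over Acsl6 and −0.91 for Fabp3 over Fabp5. In that setting 74.0% of all symbols separated by level, so separation was the usual outcome. Fabp7 over Fabp3 still overlapped and its difference turned from −0.54 to 0.24.

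Counted over the 9 genes, 2 were higher in every hippocampus library after rescaling (Mfsd2a and Acsl3), none was higher in every hypothalamus library, and 7 overlapped. Over all symbols compared the shares were 28.2% and 24.4%. The median difference of the 9 genes was 0.34, against 0.05 over all compared symbols. In FPKM as deposited, 1 gene was higher in hippocampus (Mfsd2a) and 3 in hypothalamus (Fabp7, Slc27a1 and Slc27a4), where 19% and 35.2% of all symbols were. That scaling moved the median of all symbols to −0.21, and that of the 9 genes to 0.04. Without replicate 1 of each tissue, 5 genes were higher in hippocampus (Fabp5, Mfsd2a, Acsl3, Acsl4 and Acsl6) and 3 in hypothalamus (Fabp3, Slc27a1 and Slc27a4), beside 40.9% and 33.2% of all symbols. Under the other settings the shares of all symbols higher in every hippocampus or every hypothalamus library were 23.5% and 29.4% (upper quartile), 27.2% and 25.7% (median of log ratios), 31.9% and 21.6% (sum over symbols with 1 locus) and 27.9% and 25.9% (loci summed). With so large a part of all symbols separated, the counts over the 9 genes are no result about these genes as a group.

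**Figure D5:**
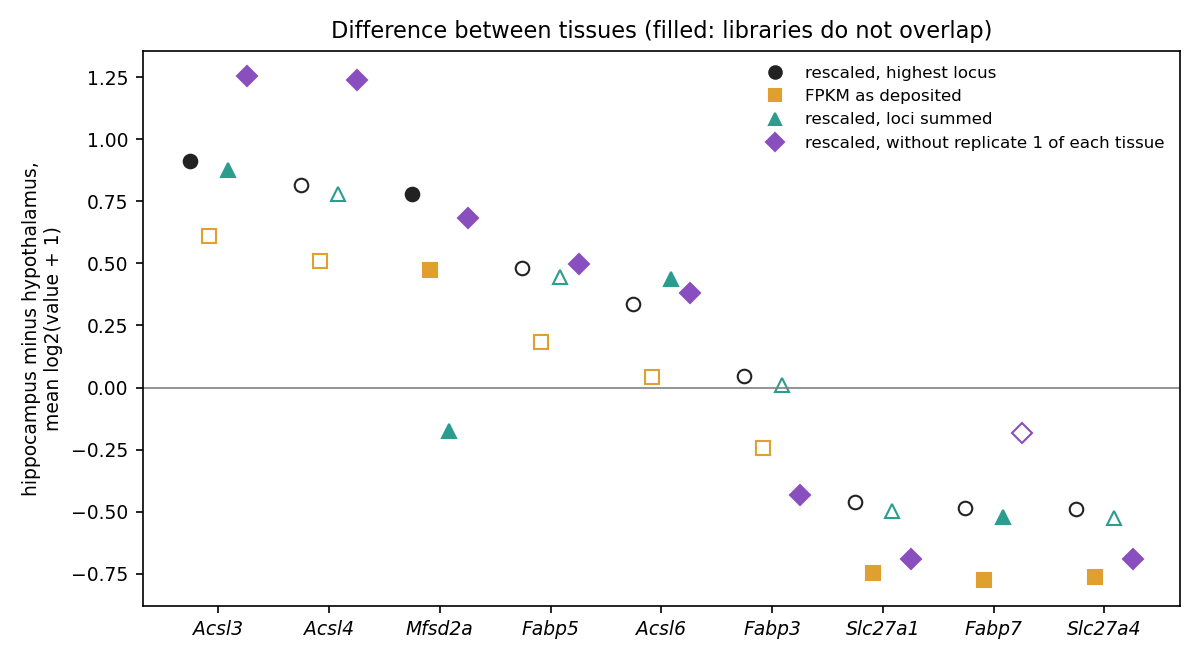
Difference between tissues (hippocampus minus hypothalamus, mean log2(value + 1)) of each gene under 4 settings, with filled symbols where the libraries of the tissues do not overlap and open symbols where they do. Mfsd2a goes from 0.78 to −0.17 with loci summed, and Fabp3 from 0.05 to −0.43 without replicate 1 of each tissue.

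Other genes of the same route were taken from 7 related lists, 54 genes in all, of which 47 were found and 33 averaged 1 FPKM or more in a tissue. After rescaling, 9 of the 33 were higher in every hippocampus library, 11 in every hypothalamus library and 13 overlapped, again beside 28.2% and 24.4% of all symbols. Their median difference was −0.08. In FPKM as deposited 5 were higher in hippocampus and 16 in hypothalamus, beside 19% and 35.2% of all symbols.

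No other fatty acid binding protein reached a mean of 1 FPKM. Fabp1, Fabp6 and Fabp9 were listed at 0 in all libraries, and the highest of the 7 was Pmp2, the myelin carrier, at 0.0605 ± 0.0424 FPKM (SD, n = 4) in hippocampus against 0.661 ± 0.416 FPKM (SD, n = 3) in hypothalamus. A 0 in these tables may not mean lack of expression, since the collagen gene Col1a2 is listed at 0 in all 7 libraries where its partner Col1a1 reads up to 71.9 FPKM. Markers of fat tissue were also low, with a summed level of the 4 adipocyte markers of 0.263 to 2.75 FPKM over the 7 libraries.

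Slc27a3, the transport protein FATP3, differed far more between tissues than Slc27a1 or Slc27a4. It read 5.60, 3.87, 5.08 and 2.66 FPKM in hippocampus and 33.3, 68.1 and 78.9 FPKM in hypothalamus, a rescaled difference of −3.36. It was higher in every hypothalamus library under each of the 5 scalings, as was Slc27a2. Of the other synthetases, Acsl5 was higher in hippocampus, at 28.8 ± 7.51 against 12.3 ± 3.51 FPKM, and Acsbg1, the bubblegum synthetase of astrocytes, was higher in hypothalamus, at 144 ± 6.64 against 57.3 ± 12.5 FPKM (SD, n = 4 in hippocampus and n = 3 in hypothalamus). Both held under each of the 5 scalings. Acsl1 overlapped after rescaling, with a difference of −0.08.

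Downstream of activation, Dbi, the acyl-CoA binding protein, averaged 208 ± 6.89 FPKM (SD, n = 4) in hippocampus against 224 ± 26.2 FPKM (SD, n = 3) in hypothalamus, and all 4 compared genes of that list overlapped. Thioesterases, which cut acyl-CoA back to free fatty acid, were higher in hypothalamus for 4 of 8 genes and in hippocampus for 2, where 24.4% and 28.2% of all symbols were. A count over so few genes is no result about the list. Acot7, the brain thioesterase, averaged 118 ± 10.4 FPKM (SD, n = 4) in hippocampus against 429 ± 92.6 FPKM (SD, n = 3) in hypothalamus, and Acot13 read 10.2 ± 1.41 and 59.6 ± 6.54 FPKM. In the other direction, Acot8 differed by 1.80 and Them4 by 0.71. These 4 kept their direction without overlap under each of the 5 scalings.

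Of 6 lipid delivery genes, 2 were higher in each tissue, which is near the shares over all symbols. Lpl, which releases fatty acids from lipoproteins, averaged 27.9 ± 12.01 FPKM (SD, n = 4) in hippocampus against 4.92 ± 1.31 FPKM (SD, n = 3) in hypothalamus. Apoe, the main brain apolipoprotein, averaged 777 ± 268 FPKM in hippocampus against 3995 ± 720 FPKM in hypothalamus, with the same n. Vldlr was higher in hippocampus by 1.03, under 4 of 5 scalings, and Got2 was lower there, with a difference of −0.56. Among 10 acyltransferases, which place activated fatty acids into phospholipids, 4 were higher in hippocampus and 2 in hypothalamus, beside 28.2% and 24.4% of all symbols. Agpat3, the most abundant, read 84.9, 85.03, 83.2 and 54.4 FPKM in hippocampus and 51.8, 52.7 and 56.7 FPKM in hypothalamus, so replicate 4 lay within the hypothalamus range as deposited. Agpat3 and Gpam were higher in hippocampus under 4 of the 5 scalings, Lpcat4 was higher in hypothalamus under 3, and Lpcat1 was higher in hypothalamus under all 5.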

How the data were processed

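Poly-A RNA of 7 libraries was sequenced on an Illumina instrument, per the labels' protocols. The authors deposited 1 FPKM table per tissue. TopHat, TopHat2, Bowtie, Bowtie2, Cufflinks and Cuffdiff and the build rn5 are named per the submitters' processing notes, without roles, versions or a strand setting. Each row holds a locus, a symbol and a status word, per the file headers. Rows with a status other than OK were left out (86 in hippocampus, 24 in hypothalamus).

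A symbol was read at its locus of highest mean FPKM, with the sum over loci as a check. Libraries were rescaled to a sum of 1000000 over shared symbols, with a pseudocount of 1 on the log2 scale. The other scalings were FPKM as deposited, the upper quartile, the median of log ratios and the sum over symbols with 1 locus. A gene was called higher when all libraries of a tissue lay above all of the other. The calls were also run on simulated data in which each gene varied independently. Such data lack the replicate orders that many symbols shared here, so they do not show how often calls arise in these libraries. No test was run across the separately normalized tables. The members and lists were chosen with earlier results of these data known. Named genes were the members and, per related list, the most abundant gene and up to 2 non-overlapping genes of at least 5 FPKM in each direction. Other genes (Oxa1l, Clip2, Slc27a2, Acsl1 and the listed zeros) were named after their values were seen. Python 3.11.15 and pandas 2.3.3 were used. Whether replicates are separate animals is not stated.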

Additional observations from a re-analysis of the deposited data

Results flagged for a closer look

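Dixon's test sets the distance between an extreme library and its neighbour against the full spread of the group. Of 55 hippocampus results, 3 passed its 95% critical value for 4 libraries, where chance gives about 1 in 20, or 2.75 here. None of the 9 genes was among them. Agpat3 had a ratio of 0.940, with replicate 4 at 54.4 FPKM and the other libraries at 83.2 to 85.03 FPKM. The hippocampal neuron list had a ratio of 0.837, with a mean log2(FPKM + 1) of 6.43 in replicate 3 and 6.62 to 6.65 in the others. The hypothalamic neuron list had a ratio of 0.948, with 1.16 in replicate 1 and 0.66 to 0.68 in the others.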

How the results depend on the processing

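The count of genes higher in every hippocampus library was 2 (Mfsd2a and Acsl3) and became 1 with FPKM as deposited. With loci summed it was again 2, but of Acsl3 and Acsl6, and Mfsd2a was then higher in every hypothalamus library. The count higher in every hypothalamus library was 0 and became 3 with FPKM as deposited, 2 under upper-quartile scaling, 1 under the median of log ratios and 2 with loci summed. Without replicate 1 of each tissue the counts were 5 and 3. Leaving out single libraries gave 2 to 5 and 0 to 2, with the 5 reached without hypothalamus replicate 1, where 66.2% of all symbols did not overlap against 52.6% with all libraries. The difference of Mfsd2a reversed to −0.17 with loci summed, and no other difference of a gene called in the first place changed sign. Of 135 recomputed differences of single genes, 129 moved by less than the replicate SD. The share of all symbols without overlap was 39.6% to 74.0% over the alternatives. The causes of these changes were not tested. The alternatives for the likeness ranks, the Acsl3 over Slc27a1 ratio and the counts over related genes were chosen after seeing the data. No paired analysis was possible because the labels do not say that equal replicate numbers mark the same animal, and the values here are descriptions that come from no test. Depth is unknown, so no counting interval could be given.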
